A study of Mus musculus with 6 samples.

Results

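The enzymes that bring pyruvate into the mitochondrion, oxidise it, turn the citrate cycle and exchange malate and aspartate across the inner membrane were followed as a set of 32 genes in left ventricular RNA. The members were taken by symbol from the deposited gene table, and all 32 were found among its 52550 genes. They comprise the mitochondrial pyruvate carrier, the pyruvate dehydrogenase complex with its kinases and a phosphatase, pyruvate carboxylase, most enzymes of the citrate cycle, both malate dehydrogenases, both aspartate aminotransferases and the malic enzymes Me1 and Me3.

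The libraries labelled PKI came from mice described as overexpressing PGC1alpha, and those labelled WT from wild-type mice, with 3 libraries of each. All were C57BL/6J mice aged 12 months, and the labels give left ventricular tissue as the source. The labels name neither the promoter nor the cell type that drives the overexpression, and they do not say whether each library came from a separate animal. The p-values below therefore measure the spread between these libraries, which may be technical. The comparison asks how the ventricular transcriptome of PKI mice differs from that of WT mice.

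Pyruvate enters the mitochondrial matrix through a carrier and is converted to acetyl-CoA by the pyruvate dehydrogenase complex, which kinases switch off and phosphatases switch on. The citrate cycle then oxidises the acetyl group and hands its electrons to the respiratory chain. In the heart most acetyl-CoA comes from fatty acids, and the balance with pyruvate is set largely at pyruvate dehydrogenase. The malate-aspartate shuttle carries the reducing equivalents of cytosolic NADH into the matrix. PGC-1α is a transcriptional coactivator that works with nuclear receptors such as the estrogen-related receptors (ERR) and raises genes of oxidative metabolism.

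Levels are in FPKM, a unit that divides fragments by transcript length and by the mapped total of the library, which hides how deeply a library was sequenced and allows no interval for counting error. FPKM totals were 708058 to 726064 in PKI and 747154 to 767757 in WT libraries. Transcripts of mitochondrial genes and their nuclear copies took 78.0% to 78.2% of the total in PKI and 81.8% to 82.3% in WT libraries. Of 9907 genes tested, limma called 3902 at an adjusted p under 0.05 (39.4%), of which 3609 were higher in PKI (36.4%) and 293 lower (2.96%). The median log2 change of all tested genes was 0.21. With every library divided by its median-of-ratios size factor (written "after scaling" from here on), that median was -0.02. The calls were then 1684 (17.0%), with 775 higher (7.82%) and 909 lower (9.18%). The members are therefore described on both scales. Ppargc1a, which encodes PGC-1α, had 11.6, 11.8 and 11.4 FPKM in PKI libraries, against 14.2, 12.8 and 12.4 FPKM in WT libraries. The log2 change was -0.16 (adjusted p = 0.0967), and by exact permutation of the 6 values, two-sided, p was 0.1, the minimum over 20 arrangements. After scaling it was -0.44 (adjusted p = 0.00521). The RNA level of the gene named in the PKI label was therefore not higher in the libraries labelled PKI. Whether the gene's FPKM counts an introduced copy is not stated in the labels, and each direction below is between libraries as labelled.

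The promoters of Ogdhl and Pdk2 are shown because these were the members whose call held in each fit run, with a library left out or a replicate block included. The windows run from 250 bases before to 50 bases after a gene start, from RefSeq on GRCm38.p6, and capitals mark the 50 bases from the start on. Ogdhl has 1 window on the plus strand, at chr14:32321769-32322068. Pdk2 has 2 windows on the minus strand, at chr11:95040826-95041125 and chr11:95041322-95041621.
Ogdhl promoter: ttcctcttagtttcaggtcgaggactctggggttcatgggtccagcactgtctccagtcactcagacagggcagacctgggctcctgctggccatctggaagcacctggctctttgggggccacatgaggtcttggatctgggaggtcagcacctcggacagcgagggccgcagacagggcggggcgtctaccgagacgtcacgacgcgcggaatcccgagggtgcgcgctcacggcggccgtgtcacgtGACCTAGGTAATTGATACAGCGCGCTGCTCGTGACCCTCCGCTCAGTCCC
Pdk2 promoter, first window: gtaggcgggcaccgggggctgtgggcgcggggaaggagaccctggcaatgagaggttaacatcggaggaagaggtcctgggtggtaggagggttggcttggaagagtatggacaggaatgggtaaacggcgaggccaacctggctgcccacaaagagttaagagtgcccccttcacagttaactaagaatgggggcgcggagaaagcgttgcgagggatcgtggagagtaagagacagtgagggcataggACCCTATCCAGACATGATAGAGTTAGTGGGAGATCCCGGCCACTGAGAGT
Pdk2 promoter, second window: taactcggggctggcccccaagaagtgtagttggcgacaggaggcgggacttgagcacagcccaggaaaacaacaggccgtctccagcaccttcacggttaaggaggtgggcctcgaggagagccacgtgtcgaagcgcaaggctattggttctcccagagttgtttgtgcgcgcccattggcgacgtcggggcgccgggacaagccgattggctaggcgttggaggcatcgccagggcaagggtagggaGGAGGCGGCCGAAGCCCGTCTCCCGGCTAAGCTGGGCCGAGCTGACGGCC

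Windows were found for 30 of the 32 members, and both strands were searched for 3 motifs. The ERR motif TNAAGGTCA was in the windows of 0 of 30 members and of 1.43% of 27025 genes. A 10-letter NRF1 motif was found in 2 of 30 members, Dld and Sucla2, and in 5.19% of all genes. Its first 9 letters, GCGCANGCG, were searched after those counts were seen, and were found in 3 of 30 members, with Ogdh added, and in 7.03% of all genes. The ETS motif CCGGAAGT was in 1 of 30 members, Dlst, and in 4.31% of genes. None of these letters occur in the 3 windows printed above. A missing match says only that the letters are not in these 300 bases.

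Most of the enzymes were abundant. As deposited few were called, and after scaling most were called lower in PKI. Of the 32 genes 31 reached the mean of 1 FPKM needed for the test, and 30 of them lay above the median level of all tested genes. Of the 31, 6 were called as deposited. Pdhx was higher in PKI, and Ogdhl, Pdk2, Idh2, Cs and Idh3b were lower. The 6 of 31 called stand beside 39.4% of all tested genes, the 1 higher beside 36.4% and the 5 lower beside 2.96%. The members' median log2 change was -0.05, with a range of -0.83 to 0.22, beside 0.21 for all tested genes, and Pdhx was the 1 member not below the median of all genes. Among the 31 tested members the PKI libraries lay wholly above WT for 3 (Dlat, Pdhx and Idh3a), against 51.3% of all tested genes. They lay wholly below for 6 (Pdk2, Cs, Idh3b, Idh2, Ogdhl and Fh1), against 4.53%. After scaling 19 members were called, beside 17.0% of all genes, with 0 higher, beside 7.82%, and 19 lower, beside 9.18%. Their median was -0.34, beside -0.02 for all genes. On that scale 28 members lay below WT without overlap, against 20.7% of all genes, and 0 lay above, against 16.6%. The directions of 12 members turned with the scaling.

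**Figure D1:**
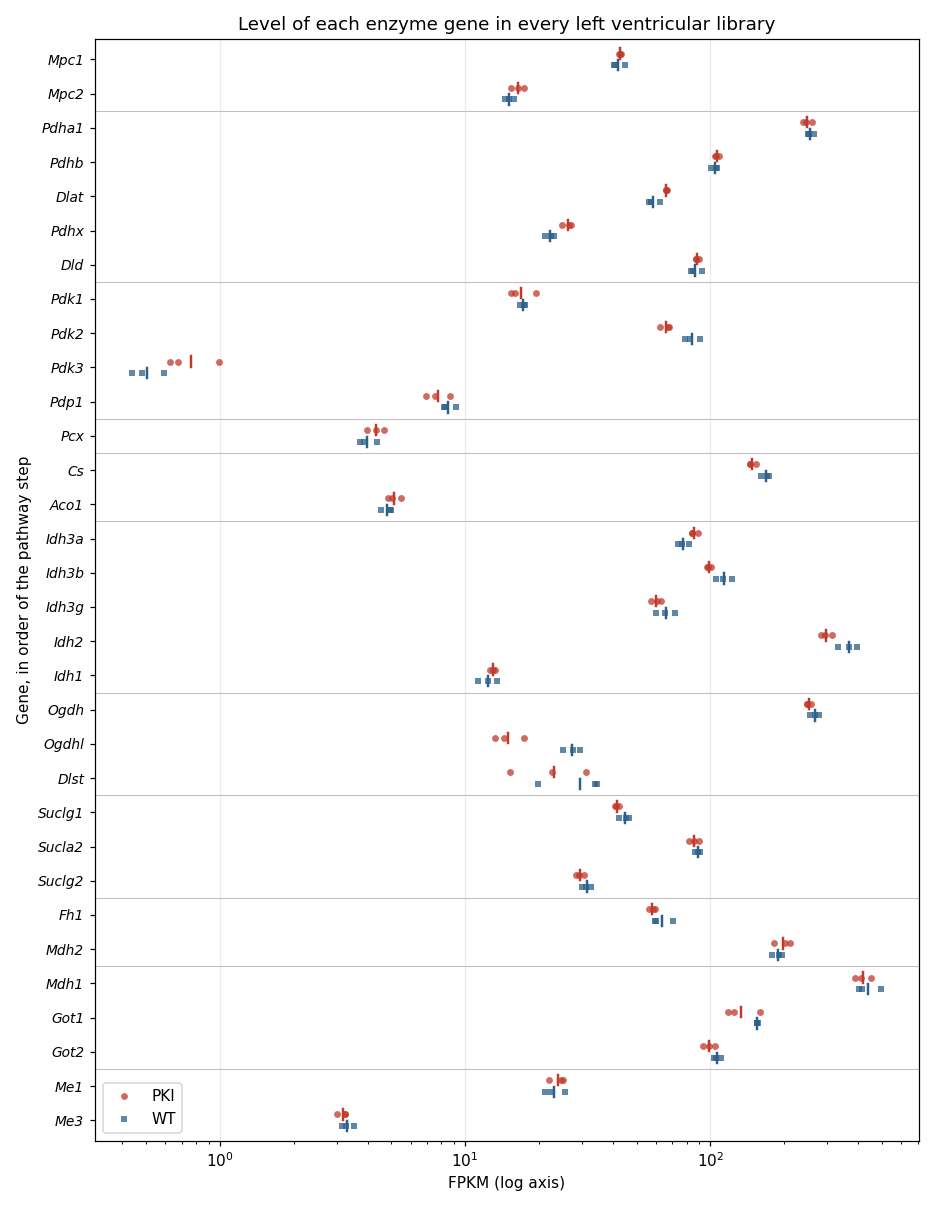
FPKM of the 32 enzyme genes on a log axis, with a point for each PKI library (circles) and WT library (squares) and a bar at each group mean. Mdh1 is highest and Pdk3 lowest, and Ogdhl and Pdk2 show PKI points wholly below the WT points.

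**Figure D2:**
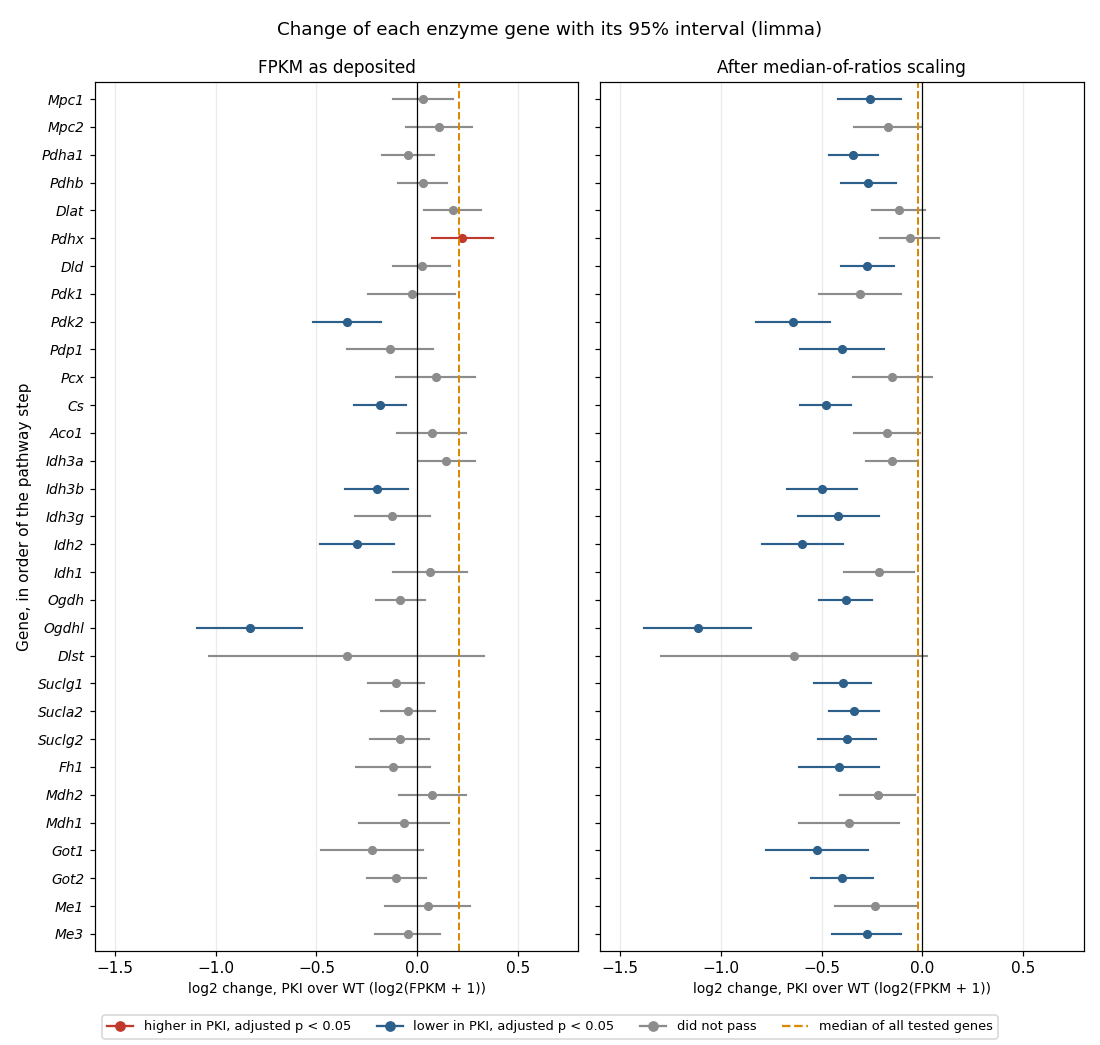
Log2 change of PKI over WT for the 31 tested genes with the 95% interval from limma, as deposited (left) and after scaling (right). The dashed line is the median of all tested genes, 0.21 as deposited and -0.02 after scaling.

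Pyruvate entry did not pass the test as deposited. Mpc1, a subunit of the mitochondrial pyruvate carrier, had 43.0, 43.2 and 42.3 FPKM in PKI libraries, against 40.7, 40.3 and 44.9 FPKM in WT libraries. The groups overlapped, and the log2 change of 0.03 turned to -0.26 after scaling (adjusted p = 0.0360). A near-identical processed copy, Mpc1-ps, was listed at 122 FPKM on average in PKI and 108 FPKM in WT libraries. Because that exceeds Mpc1 itself, and the sources used here do not say how reads were divided, the level of Mpc1 is uncertain. Mpc2, the partner subunit, averaged 16.4 ± 0.992 FPKM in PKI and 15.1 ± 0.664 FPKM in WT libraries (SD, n = 3 each), with a log2 change of 0.11 that turned to -0.17 after scaling and passed on neither scale.

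Within the pyruvate dehydrogenase complex Pdhx, the protein that anchors the E3 component, was the 1 subunit called. It had 27.1, 26.6 and 24.8 FPKM in PKI libraries, against 22.4, 21.3 and 23.1 FPKM in WT libraries. All PKI libraries lay above all WT libraries, with a log2 change of 0.22 (SE 0.06, adjusted p = 0.0315), beside 0.21 for the median of all genes. After scaling it turned to -0.06 (adjusted p = 0.546). The call was lost in 5 of 6 fits that left out a library, with adjusted p between 0.0496 and 0.0940. Dlat, the E2 acetyltransferase, had 66.4, 65.7 and 66.3 FPKM in PKI libraries, against 62.1, 57.3 and 56.0 FPKM in WT libraries. Its groups did not overlap, but the adjusted p was 0.0520 at a log2 change of 0.18, which turned to -0.12 after scaling. Without the first WT library it passed (adjusted p = 0.0282). The E1 subunits overlapped between the groups. Pdha1 averaged 248 ± 11.2 FPKM in PKI and 256 ± 8.58 FPKM in WT libraries, and Pdhb 106 ± 1.94 FPKM in PKI and 104 ± 3.25 FPKM in WT libraries (SD, n = 3 each). Dld, the E3 dehydrogenase shared with the oxoglutarate complex, averaged 88.2 ± 1.15 FPKM in PKI and 86.9 ± 4.97 FPKM in WT libraries. None of these 3 passed as deposited, and all 3 were called lower after scaling, with log2 changes of -0.34 for Pdha1, -0.27 for Pdhb and -0.27 for Dld. With a library also left out on that scale, the adjusted p reached 0.0310 for Pdha1, 0.0803 for Pdhb and 0.0649 for Dld.

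Among the regulators of the complex Pdk2 fell. This kinase phosphorylates and inactivates the E1 component. It had 67.4, 62.3 and 67.7 FPKM in PKI libraries, against 78.8, 90.7 and 83.0 FPKM in WT libraries. Every PKI library lay below every WT library, and PKI averaged 65.8 ± 3.03 FPKM against 84.2 ± 6.04 FPKM in WT (SD, n = 3 each), 1.28-fold lower. The log2 change was -0.35 (SE 0.07, adjusted p = 0.0105), and it was -0.64 after scaling (adjusted p = 0.00259). Leaving out any 1 library gave an adjusted p between 0.0107 and 0.0344.

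The other kinases and the phosphatase did not pass as deposited. Pdk1 had 15.4, 19.4 and 16.0 FPKM in PKI libraries, against 17.4, 17.5 and 16.7 FPKM in WT libraries, and the second PKI library stood above the rest. Its log2 change was -0.03 as deposited (adjusted p = 0.823) and -0.31 after scaling (adjusted p = 0.0503). Pdk3 was listed at 0.993, 0.628 and 0.674 FPKM in PKI libraries, against 0.590, 0.480 and 0.440 FPKM in WT libraries, under the mean needed for the test. Its PKI libraries lay above WT without overlap as deposited, and the groups overlapped after scaling. Pdk4, a kinase of the same family outside the set, had 30.8, 29.8 and 31.2 FPKM in PKI libraries, against 42.1, 22.5 and 24.6 FPKM in WT libraries. The first WT library was high, and the log2 change of 0.09 (adjusted p = 0.732) turned to -0.19 after scaling. By mean FPKM the order was Pdk2, Pdk4, Pdk1 and Pdk3 in both groups. Pdp1, the phosphatase that reactivates the complex, averaged 7.73 ± 0.877 FPKM in PKI and 8.55 ± 0.530 FPKM in WT libraries (log2 change -0.13, adjusted p = 0.266), and was called lower after scaling (-0.40, adjusted p = 0.0240). Pcx, pyruvate carboxylase, which makes oxaloacetate from pyruvate, averaged 4.32 ± 0.357 FPKM in PKI and 3.99 ± 0.334 FPKM in WT libraries, and its log2 change of 0.09 turned to -0.15 after scaling without passing on either scale.

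At the entry of the cycle Cs fell. Citrate synthase, its product, joins acetyl-CoA to oxaloacetate. Cs had 154, 145 and 145 FPKM in PKI libraries, against 173, 170 and 162 FPKM in WT libraries. The groups did not overlap, and the log2 change was -0.18 (SE 0.05, adjusted p = 0.0354) and -0.48 after scaling (adjusted p = 0.00202). With a library left out its adjusted p ran from 0.0491 to 0.109. Aco1, the cytosolic aconitase that doubles as an iron-responsive RNA-binding protein, averaged 5.12 ± 0.340 FPKM in PKI and 4.82 ± 0.239 FPKM in WT libraries, with a log2 change of 0.07 that turned to -0.18 after scaling and passed on neither.

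As deposited, the log2 changes of the 5 isocitrate dehydrogenase genes lay on both sides of 0, and after scaling all 5 were below 0. A difference among these genes was not tested. Idh2, the mitochondrial NADP-dependent enzyme, had 315, 283 and 294 FPKM in PKI libraries, against 332, 398 and 368 FPKM in WT libraries. The groups did not overlap, and Idh2 fell with a log2 change of -0.30 (SE 0.08, adjusted p = 0.0230), or -0.60 after scaling (adjusted p = 0.00491). Leaving out a library gave adjusted p from 0.0112 to 0.0679. Idh3b, a subunit of the NAD-dependent enzyme of the cycle, had 101, 97.6 and 96.6 FPKM in PKI libraries, against 105, 113 and 122 FPKM in WT libraries. It fell just inside the threshold (log2 change -0.20, adjusted p = 0.0496), and with a library left out the adjusted p ran from 0.0255 to 0.141. After scaling the log2 change was -0.50 (adjusted p = 0.00547). An exon of it overlaps Nop56 on the opposite strand by 5 bases, and the kit does not mark strand. Exons of Mpc1, Pdha1, Mdh1, Got2, Me1 and Me3 also overlap opposite-strand genes, by 30 to 603 bases. Those genes averaged 0.377 FPKM or less.

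Idh3a, the catalytic subunit, had 84.1, 88.7 and 84.2 FPKM in PKI libraries, against 81.5, 73.9 and 76.7 FPKM in WT libraries. PKI lay above WT without overlap, but the log2 change of 0.15 did not pass (adjusted p = 0.0891) and turned to -0.15 after scaling. The ratio of Idh3a to Idh3b, which no scaling between libraries can alter, was 0.835, 0.908 and 0.872 in PKI libraries, against 0.775, 0.656 and 0.628 in WT libraries. That pair was chosen after its values were seen and is given without a test. Idh3g, the third subunit, averaged 60.3 ± 2.73 FPKM in PKI and 65.9 ± 5.91 FPKM in WT libraries (adjusted p = 0.235), and was called lower after scaling (log2 change -0.42). Idh1, the cytosolic NADP-dependent enzyme, averaged 13.0 ± 0.289 FPKM in PKI and 12.4 ± 1.14 FPKM in WT libraries, with a log2 change of 0.06 that turned to -0.21 after scaling and passed on neither.

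Ogdhl had the widest change of the set. It encodes an oxoglutarate dehydrogenase-like E1 protein related to Ogdh. It had 17.4, 13.2 and 14.4 FPKM in PKI libraries, against 27.7, 25.0 and 29.4 FPKM in WT libraries. The highest PKI library lay well below the lowest WT library. PKI averaged 15.0 ± 2.19 FPKM against 27.4 ± 2.24 FPKM in WT (SD, n = 3 each), 1.82-fold lower. The log2 change was -0.83 (SE 0.11, adjusted p = 0.00254), and -1.12 after scaling (adjusted p = 0.00148). Leaving out any 1 library gave an adjusted p between 0.00354 and 0.0135.

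Ogdh itself, the main E1 subunit, averaged 252 ± 5.83 FPKM in PKI and 267 ± 11.3 FPKM in WT libraries and did not pass as deposited (log2 change -0.08, adjusted p = 0.233). It was called lower after scaling (-0.38, adjusted p = 0.00547). Dlst, the E2 succinyltransferase, had 22.5, 31.2 and 15.3 FPKM in PKI libraries, against 33.8, 34.3 and 19.8 FPKM in WT libraries. It scattered more than other members within both groups, with a coefficient of variation of 34.7% in PKI and 28.2% in WT, beside member medians of 4.52% in PKI and 5.57% in WT. It did not pass on either scale (log2 change -0.35 as deposited, adjusted p = 0.354, and -0.64 after scaling, adjusted p = 0.174).

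**Figure D3:**
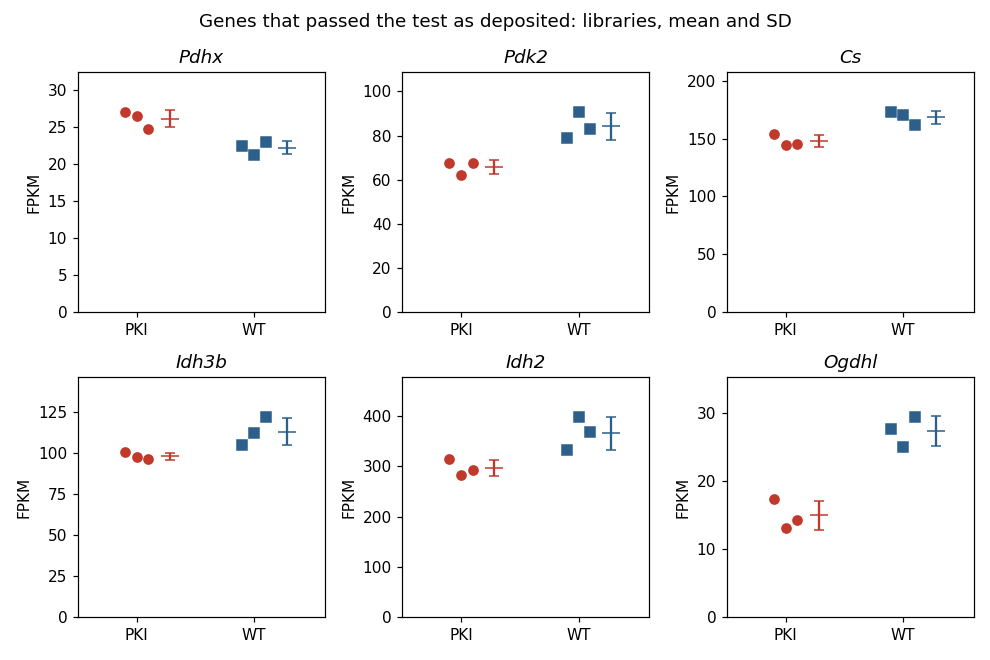
FPKM of the 6 members called as deposited, with a point per library, PKI left of WT, and the mean and SD of 3 libraries beside the points. Pdhx lies higher in PKI as deposited, which turned after scaling, and the other 5 genes lie lower without overlap.

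Later steps of the cycle did not pass as deposited. The succinate-CoA ligase subunits make succinate with ATP (Sucla2) or GTP (Suclg2) together with the shared subunit Suclg1. Their log2 changes were -0.10 for Suclg1, -0.05 for Sucla2 and -0.09 for Suclg2, and all 3 were called lower after scaling (-0.40, -0.34 and -0.38 in the same order). Fh1, fumarate hydratase, had 58.1, 56.2 and 59.6 FPKM in PKI libraries, against 59.7, 59.9 and 70.3 FPKM in WT libraries. These groups were separate by a small margin, and the log2 change of -0.12 did not pass as deposited (adjusted p = 0.238). After scaling Fh1 was called lower (-0.41, adjusted p = 0.0174). Mdh2, mitochondrial malate dehydrogenase, averaged 198 ± 14.8 FPKM in PKI and 188 ± 8.64 FPKM in WT libraries, with a log2 change of 0.08 that turned to -0.22 after scaling and passed on neither.

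The shuttle enzymes were among the most abundant. Mdh1, cytosolic malate dehydrogenase, had 413, 389 and 454 FPKM in PKI libraries, against 403, 417 and 497 FPKM in WT libraries, the highest level in the set. The groups overlapped (log2 change -0.06, adjusted p = 0.600, and -0.36 after scaling, adjusted p = 0.0566). Got1, the cytosolic aspartate aminotransferase, had 159, 125 and 118 FPKM in PKI libraries, against 155, 155 and 156 FPKM in WT libraries. The first PKI library lay above all WT libraries and the other 2 below them. Got1 did not pass with all libraries (log2 change -0.23, adjusted p = 0.130) and passed without the first PKI library (-0.35, adjusted p = 0.0129). Got2, the mitochondrial form, averaged 99.1 ± 5.51 FPKM in PKI and 106 ± 3.76 FPKM in WT libraries and did not pass as deposited (log2 change -0.10, adjusted p = 0.214). Both were called lower after scaling, Got1 at -0.52 (adjusted p = 0.0181) and Got2 at -0.40 (adjusted p = 0.00818).

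The malic enzymes make pyruvate from malate. Me1, the cytosolic form, averaged 23.9 ± 1.65 FPKM in PKI and 23.0 ± 2.30 FPKM in WT libraries, with a log2 change of 0.05 that turned to -0.23 after scaling and passed on neither. Me3, a mitochondrial form, averaged 3.16 ± 0.129 FPKM in PKI and 3.30 ± 0.188 FPKM in WT libraries (log2 change -0.05, adjusted p = 0.593), and was called lower after scaling (-0.28, adjusted p = 0.0420). Besides Mpc1, near-identical copies at 1 FPKM or more were listed for Pdhb, Got2, Me1 and Suclg2, each below its member's own level.

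Ratios of related enzymes within a library do not depend on scaling between libraries. Of 8 pairs tested by an exact two-sided permutation test, 3 separated the groups at p = 0.1, the smallest possible, and the adjusted p over the 8 pairs was 0.267. The Ogdhl to Ogdh ratio was 0.0701, 0.0511 and 0.0580 in PKI libraries, against 0.109, 0.0903 and 0.110 in WT libraries. Idh1 to Idh2 averaged 0.0437 ± 0.00139 in PKI and 0.0341 ± 0.00570 in WT libraries (SD, n = 3 each). Pdk1 to Pdk2 averaged 0.259 ± 0.0458 in PKI and 0.205 ± 0.0146 in WT libraries. The pairs Sucla2 to Suclg2, Mdh1 to Mdh2, Got1 to Got2, Mpc1 to Mpc2 and Me1 to Me3 overlapped between the groups.

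**Figure D4:**
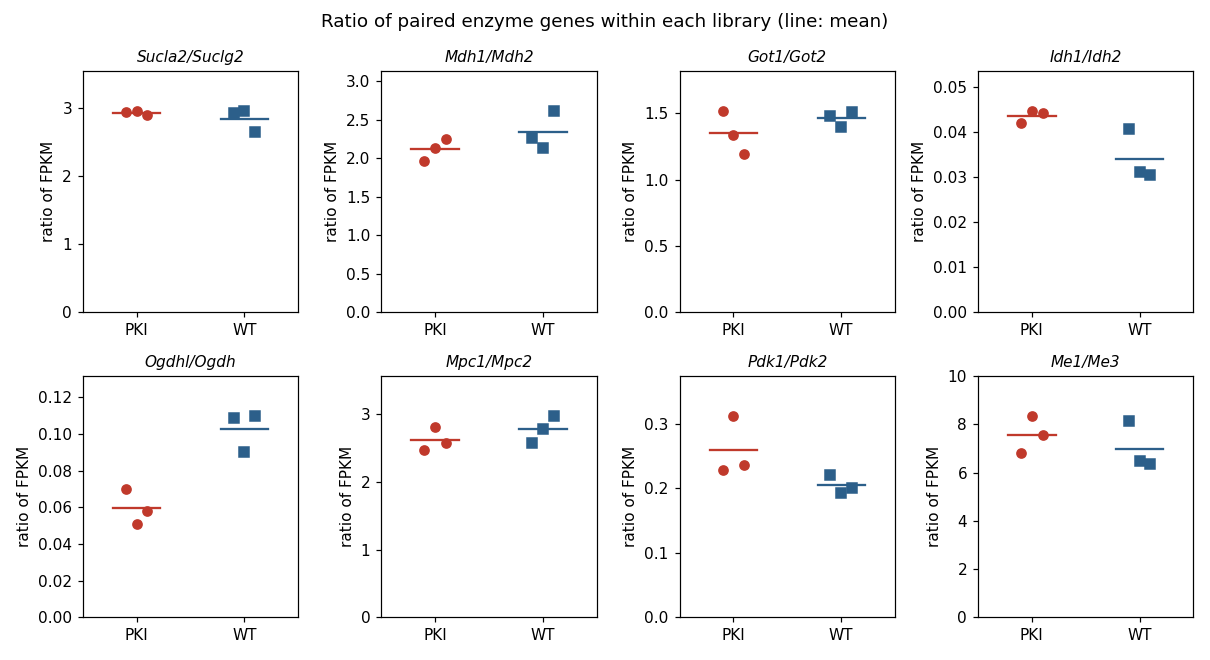
Ratio of FPKM of related enzymes in each library for 8 pairs, PKI left of WT, with a line at each mean of 3 libraries. Ogdhl to Ogdh lies lower in PKI, and Idh1 to Idh2 and Pdk1 to Pdk2 lie higher, without overlap.

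Summed over the 32 genes, the enzymes had 2833, 2730 and 2775 FPKM in PKI libraries, against 2893, 2998 and 3032 FPKM in WT libraries. Every PKI sum lay below every WT sum. The sum is on the deposited scale and weighs abundant genes most. Of the 31 tested members 12 had log2 changes above 0 and 19 below on that scale. In bulk tissue, fewer cells of a type and less RNA per cell cannot be told apart. Cardiomyocyte markers summed to 9092 to 12638 FPKM in PKI and 12479 to 13304 FPKM in WT libraries, with 1 of 8 called higher and 2 lower as deposited, and 0 higher and 6 lower after scaling (median -0.38). Fibroblast markers summed to 234 to 286 FPKM in PKI and 84.2 to 124 FPKM in WT libraries, with 6 of 7 called higher on both scales. Macrophage markers summed to 96.8 to 102 FPKM in PKI and 35.9 to 47.2 FPKM in WT libraries, with 7 of 7 higher as deposited and 6 after scaling. Smooth muscle markers summed to 66.7 to 113 FPKM in PKI and 34.8 to 52.1 FPKM in WT libraries, with 2 of 4 called higher as deposited and 1 after scaling. Endothelial markers summed to 73.2 to 80.4 FPKM in PKI and 66.3 to 70.4 FPKM in WT libraries, with 2 of 6 higher as deposited and 1 lower after scaling. Red blood cell markers summed to 172 to 216 FPKM in PKI and 239 to 348 FPKM in WT libraries, with all 3 tested genes lower on both scales. Atrial markers summed to 10.1 to 115 FPKM in PKI and 60.2 to 135 FPKM in WT libraries, with 0 of 3 called on either scale. No marker in these lists was at 0 in all libraries. The part of these markers in the members' values was not tested. The second PKI library had the lowest cardiomyocyte sum, which rested on Mb, myoglobin, at 5835, 2753 and 5717 FPKM in PKI libraries, against 5613, 6189 and 6211 FPKM in WT libraries. Without Mb, left out after its values were seen, the sums were 6803, 6339 and 6622 FPKM in PKI libraries, against 6866, 7115 and 6839 FPKM in WT libraries. Without that library Ogdhl and Pdk2 stayed lower (log2 changes -0.75 and -0.31, adjusted p = 0.00784 and 0.0299), as the 2 members then called.

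Of 33 other genes of the same pathways 32 were tested. As deposited 4 were called higher, beside 36.4% of all genes, and 5 lower, beside 2.96%, and the median log2 change was -0.06. After scaling 0 were higher, beside 7.82%, and 18 lower, beside 9.18%, with a median of -0.31. Sdha, the flavoprotein of succinate dehydrogenase, fell (-0.30, adjusted p = 0.0047), as did Ldhb, the heart form of lactate dehydrogenase (-0.19), and Slc25a12, an aspartate-glutamate carrier of the shuttle (-0.22). The other succinate dehydrogenase subunits, Sdhb (-0.03), Sdhc (-0.10) and Sdhd (0.07), did not pass as deposited and were called lower after scaling. Me2, the remaining mitochondrial malic enzyme, had 4.87, 4.11 and 4.56 FPKM in PKI libraries, against 3.31, 2.15 and 2.27 FPKM in WT libraries, and rose as deposited (0.64, adjusted p = 0.0105) but did not pass after scaling (0.41, adjusted p = 0.0734). Slc25a1, the citrate carrier (0.37), Gpd1, cytosolic glycerol-3-phosphate dehydrogenase (0.34), and Pck2, mitochondrial PEP carboxykinase (0.23), were also called higher as deposited, and none was called after scaling. Pdp2 and Pdpr, a phosphatase and a phosphatase regulatory subunit of pyruvate dehydrogenase, did not pass as deposited (-0.14 and -0.25). Of 19 enzymes of mitochondrial fatty acid oxidation, 12 were called lower, beside 2.96% of all genes, and 0 higher, beside 36.4%. Their median was -0.29, and the 31 tested members had 5 lower, 1 higher and a median of -0.05. After scaling 18 of 19 were lower, beside 9.18% of all genes, with a median of -0.59, and 19 of 31 members were lower, with a median of -0.34. The difference between the lists was not tested.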

How the data were processed

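RNA from 6 left ventricular samples was sequenced from TruSeq libraries made from Trizol RNA, per the labels' protocols. The deposited values are FPKM per gene and library, made by the authors. CASAVA, Bowtie 0.12.2 and mm9 are named in the submitters' processing notes, and the program that made the FPKM is not given in the sources used here. Gene positions and promoters come from GRCm38 by identifier and symbol and were not converted.

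The gene test was limma 3.58.1 (R 4.3.3) with a variance trend, applied to log2(FPKM + 1) of the 9907 genes, of 24705 above 0, whose mean reached 1 FPKM. It was two-sided, and p-values were adjusted over all of these genes by the Benjamini-Hochberg method. Every adjusted p on genes is from that fit, or from the same fit on scaled values or with a library left out where so stated. This scale understates the change of low genes, and folds are ratios of mean FPKM. For scaled values each library was divided by its median-of-ratios size factor. Ratios and Ppargc1a were compared by exact permutation with scipy 1.17.1. Copies were genes with at least 95% identity over 200 bases.

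The genes named are every member, Ppargc1a, Pdk4, Pdp2, Pdpr and, of the other pathway genes, the called ones with the 5 smallest p in each direction. Sdhb, Sdhc, Sdhd and D2hgdh fall outside this rule and were added after their values were seen. A gene that meets this rule is not reported here. The members and lists were chosen with earlier results of these data known. Alternatives were a pseudocount of 0.1, no filter, no variance trend, both scalings, the replicate block, and fits without 1 library at a time. The combination of scaling with leaving out a library, the shorter NRF1 motif and the marker sum without Mb were added after seeing the data.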

Additional observations from a re-analysis of the deposited data

How the results depend on the processing

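The call of 6 members depended on the fit. It was 6 with a pseudocount of 0.1, 4 without a variance trend, 3 without a filter on low values, 19 after median-of-ratios scaling, 14 after scaling to the nuclear total, and 2 to 5 with a library left out. With median-of-ratios scaling and 1 library left out together, chosen after seeing the data, it was 13, 14 and 12 without PKI libraries 1, 2 and 3, and 20, 14 and 12 without WT libraries 1, 2 and 3. Mpc1, Pdhb, Dld, Pdp1, Idh3g, Fh1, Got1 and Me3 each lost the scaled call in at least 1 of those fits. Their highest adjusted p ran from 0.0547 (Fh1) to 0.132 (Me3). Members that did not pass after nuclear scaling included Mpc1, Pdhb, Dld and Pdp1 (limma adjusted p = 0.106, 0.0529, 0.0818 and 0.0603). Over all genes the calls were 1684 after median-of-ratios scaling, 1622 after nuclear scaling, and 2344 to 3425 with a library left out. With both changes they were 1067, 1232 and 867 without PKI libraries 1, 2 and 3, and 1613, 1179 and 865 without WT libraries 1, 2 and 3. Ogdhl and Pdk2 were called lower in each of these fits. FPKM give no depth, so counting error could not be set beside these values.

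The replicate block gave 2 members (Ogdhl and Pdk2) and 2849 genes. Libraries with the same number did not deviate together (r = -0.104, 0.001 and 0.053), so the numbers do not show a pairing.

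Directions turned under median-of-ratios and then nuclear scaling, as log2 changes, for Mpc1 (-0.26, -0.18), Mpc2 (-0.17, -0.092), Pdhb (-0.27, -0.18), Dlat (-0.12, -0.034), Dld (-0.27, -0.19), Pcx (-0.15, -0.080), Aco1 (-0.18, -0.11), Idh3a (-0.15, -0.065), Idh1 (-0.21, -0.13), Mdh2 (-0.22, -0.14), Me1 (-0.23, -0.15) and Pdk4 (-0.19, -0.11), and for Pdhx (-0.063) under the first. The cause was not tested.
With a library left out, log2 values crossed 0, from lowest to highest, for Dld (-0.0086 to 0.068), Pdk1 (-0.12 to 0.034), Idh1 (-3.0e-05 to 0.12), Mdh1 (-0.12 to 0.028), Me1 (-0.0030 to 0.13), Pdk4 (-0.071 to 0.37) and the Sucla2 to Suclg2 ratio (-0.0056 to 0.073). None of these was called as deposited.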

Other observations

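Outside the set, 2 enzymes of 2-hydroxyglutarate metabolism, a side branch of oxoglutarate, were in the list of other pathway genes. Adhfe1, a hydroxyacid-oxoacid transhydrogenase that forms 2-hydroxyglutarate, had 8.67, 9.93 and 9.83 FPKM in PKI libraries, against 14.2, 13.1 and 14.8 FPKM in WT libraries, and fell (log2 change -0.52, adjusted p = 0.00398 by limma). D2hgdh, which oxidises the D form, had 4.73, 4.85 and 4.80 FPKM in PKI libraries, against 5.15, 5.65 and 5.20 FPKM in WT libraries, with no overlap, and did not pass as deposited (-0.13, adjusted p = 0.152). After scaling both were called lower (-0.79 for Adhfe1 and -0.38 for D2hgdh). They were grouped after their values were seen.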
